A study of Mus musculus with 2 samples.

Results

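Glutathione transferases and antioxidant genes were compared between a three-dimensional skin model made from cells of an Itih5 knockout mouse and a model made from wildtype cells. The set of 47 genes was named by symbol and role, with no threshold on measured values, and covers 7 roles: transferases, glutathione supply, peroxide removal, superoxide dismutases, the thioredoxin cycle, quinone, aldehyde and haem metabolism, and the regulators Nfe2l2 and Keap1. A gene was read where the platform annotation gave a probe set its symbol and no other. That held for 41 of the 47 genes, and 37 of them could be read, out of 20784 genes read on the arrays. Of the other 6 genes, Gsta1, Gsta2, Gstm5 and Prdx1 stand only on probe sets with further symbols, and Prdx5 and Prdx6 have no probe set listed.

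Both models combined epidermal keratinocytes and dermal fibroblasts, grown from skin of adult, untreated mice and passaged serially, and both were taken at day 7. The groups differ by genotype, Itih5 knockout against wildtype, with 1 array each. The part of Itih5 that was removed, and the number of mice behind each model, are not stated in the labels. The Itih5 probe set lay under the expression threshold, with intensities of 30.4 and 29.8, and so checks neither label. Long passage limits the cultures as a stand-in for fresh skin. Since each genotype has 1 array, replicate error could not be estimated, no p-value was computed, and every difference compares these 2 arrays and not the genotypes in general.

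Glutathione is a tripeptide thiol that cells keep at high concentration. Transferases attach it to reactive electrophiles, peroxidases use it or thioredoxin to reduce peroxides, and reductases restore both thiols with NADPH. Many of these genes are targets of NRF2, the product of Nfe2l2, which the adaptor KEAP1 marks for degradation until oxidants or electrophiles modify KEAP1. In skin the system is known for protection against ultraviolet light and chemicals, and keratinocytes carry more NRF2 activity in the upper epidermis than in the basal layer.

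The arrays were Affymetrix whole-transcript arrays, and the deposited values are linear intensities from which the decimal point had been lost in 67457 of 67586 cases. The point was restored where a pair of places had a probability of at least 0.95, and a gene counted as expressed if its higher intensity was at least 47.9, the median over probe sets of their mean level. Restored intensities spanned 18.3 to 14117 (knockout) and 18.5 to 15400 (wildtype). Of the 37 genes read, 34 were expressed, and Gstm7, Gstt2 and Gpx2 lay below the threshold in both models. The point of another 4 genes, Gpx1, Gstk1, Mgst1 and Nqo1, stayed undecided. Among the 34 expressed genes 19 had 1 possible pair of places, and 0.23 genes are expected to be misplaced by the probabilities of their places. In simulated data such probabilities fell short for genes truly 2-fold or more apart, of which 41 were misplaced and 6.0 expected.

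The set did not shift as a whole, and its roles went in different directions. Of the 34 expressed genes 3 exceeded the wildtype value at least 2-fold, Gpx8, Gpx7 and Gstt1, which is 8.82%, beside 3.91% of all 12400 expressed genes. The 2 genes at least 2-fold lower were the alpha-class transferases Gsta4 and Gsta3, which is 5.88%, beside 3.33% of all expressed genes. Counts of 3 and 2 genes are too few to read as a difference from the background. In all, 16 genes read above 0 and 18 below 0 on the log2 scale of knockout minus wildtype, with a median of -0.04, beside 0.04 for all expressed genes. Among them Gstt3 and Gstm6 passed the filter in 1 model only, so each could count on 1 side only. Differences stayed within 1.5-fold for 19 of the 34 genes, and 79.9% of all expressed genes did so. At least 1.5-fold higher were 8 genes (23.5%) and at least 1.5-fold lower 7 (20.6%), beside 11.7% and 8.39% of all expressed genes. None of the 34 reached 3-fold, which 1.03% of all expressed genes did on the higher and 1.45% on the lower side.

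**Figure D1:**
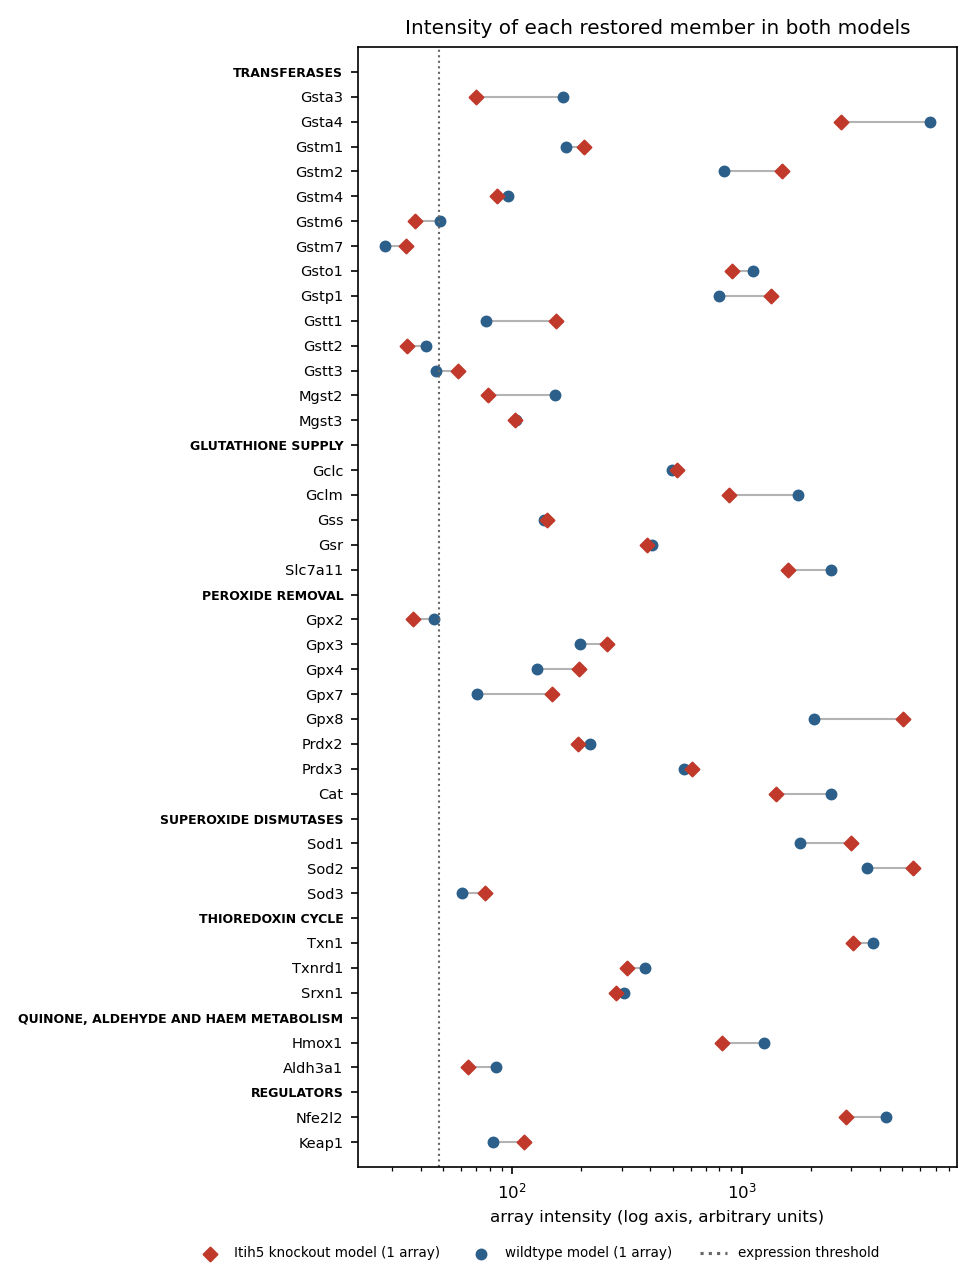
Array intensity of the 37 genes read, on a log axis, with 1 point for the knockout and 1 for the wildtype model and no error bars, since each group has 1 array; the dotted line is the expression threshold of 47.9. Gsta4 (2711 against 6598) and Gpx8 (5039 against 2074) show wide gaps in opposite directions.

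Markers of the combined cell types lay mostly on opposite sides of 0, in lists chosen with earlier results of these data known. Of 22 keratinocyte markers 17 were read, all 17 expressed, and 16 of these were below 0. At least 2-fold lower were 6 (35.3%), beside 3.33% of all expressed genes. Their median was -0.84 and their summed intensity 22448 against 45284. Krt5, Krt16, Trp63, Itgb4 and Dsc3 could not be read. Of 20 fibroblast markers 17 were read and 15 expressed, and all 15 were above 0, where 54.5% of all expressed genes lay. At least 2-fold higher were 4 (26.7%), beside 3.91% of all expressed genes. Their median was 0.89 and their summed intensity 18976 against 10563. Col6a1, Pdgfrb and Prrx1 could not be read. Expression of Krt14 (4076 against 9538) and Col1a1 (2145 against 876) was above the threshold in both models, whereas the fibroblast markers Lum and Fap were below it. Krt1 (39.8 against 54.7) and Flg (38.8 against 55.7) passed the threshold in the wildtype model only. The filter thus let these keratinocyte markers count only as below 0. The part of these markers in the differences of the antioxidant genes was not tested. Fewer cells of a type and less RNA per cell cannot be told apart in such samples.

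**Figure D2:**
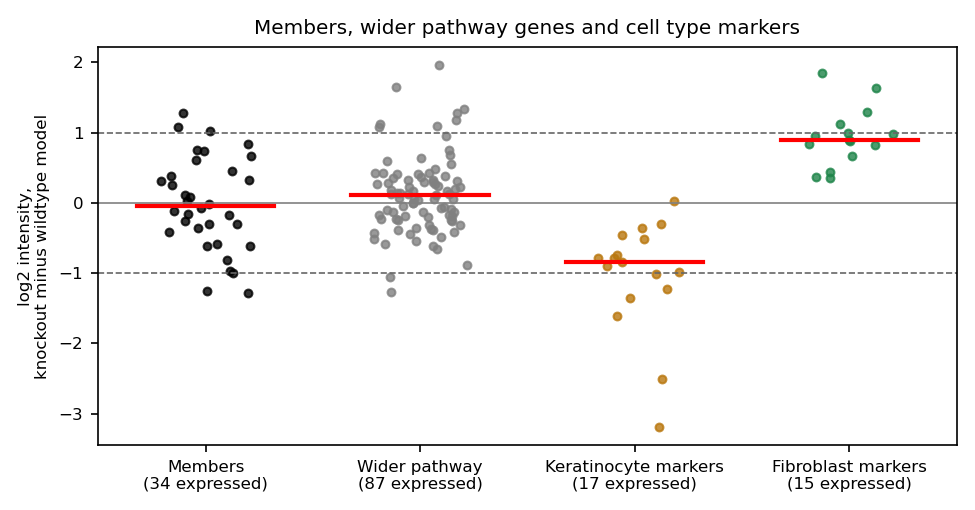
Log2 difference, knockout minus wildtype model, of each expressed gene (points, spread sideways at random) in 4 lists, with the median as a red line and dashed lines at 2-fold. The 34 antioxidant genes straddle 0 with a median of -0.04, while keratinocyte markers have a median of -0.84 and fibroblast markers one of 0.89.

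Transferases went in both directions, also within the mu class. Gsta4, whose product conjugates the lipid aldehyde 4-hydroxynonenal, read 2711 in the knockout model against 6598 in the wildtype. It was thus 2.43-fold lower in the knockout model, a log2 difference of -1.28. Gsta3, another alpha-class enzyme, read 69.6 against 166, 2.39-fold lower. Both had 1 possible place of the point and stayed at least 2-fold lower in each of the 10 settings tried. Of these settings only a changed normalization or a pseudocount could move the 2 values, and the others left them as they were.

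Of the mu-class genes, Gstm2 read 1492 in the knockout model against 837 in the wildtype, 1.78-fold higher. Gstm1 (205 against 172) and Gstm4 (85.9 against 96.1) lay within 1.5-fold. Gstm6 (37.8 against 48.5) was above the threshold in the wildtype model only, and Gstm7 (34.7 against 28.0) was below it in both. These mu-class genes are neighbours on chromosome 3 in the RefSeq order, with 0 protein-coding genes between Gstm2 and Gstm1 and 0 between Gstm1 and Gstm4. They are close paralogs, so probes may capture more than 1 transcript, and their separate values are uncertain.

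Gstt1, a theta-class enzyme that acts on small halogenated compounds, read 156 in the knockout model against 77.2 in the wildtype. That is 2.02-fold higher, only just past the threshold. With a pseudocount of 16 its log2 difference was 0.88 in place of 1.02, and after quantile normalization it was 0.995, just under 2-fold. Gstt3, its direct neighbour on chromosome 10, read 58.0 against 46.8, above the threshold in the knockout model only. Gstt2, with 34.9 against 42.3, was below the threshold in both.

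Gstp1, a pi-class enzyme, read 1341 against 800.1, 1.68-fold higher in the knockout model. Its relatives Gstp2 (312 against 405) and Gstp3 (75.3 against 93.9), from a wider list described below, were 1.30-fold and 1.25-fold lower. Here too probes may capture more than 1 transcript. Gsto1, an omega-class enzyme that reduces dehydroascorbate, read 907 against 1121, 1.24-fold lower. For Gstp1 and Gsto1 a pair 10 times as high was also possible, and that pair has the same ratio. A further pair of Gstp1, with a probability of 0.02, would be 5.97-fold lower. The membrane-bound enzymes differed too. Mgst2, which can form leukotriene C4, read 78.3 in the knockout model against 154 in the wildtype, 1.96-fold lower, while Mgst3 read 103 against 104. Over the 12 expressed transferases 5 read above 0 and 7 below, with a median of -0.09. The filter let Gstt3 count only as above 0 and Gstm6 only as below 0.

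Genes of glutathione supply were level or lower, and none reached 2-fold. Gclm, the modifier subunit of glutamate-cysteine ligase, read 885 in the knockout model against 1762 in the wildtype, 1.99-fold lower. After quantile normalization it passed the threshold, with a log2 difference of -1.01. The catalytic subunit Gclc, in contrast, read 524 against 497, 1.05-fold higher. The subunits of this rate-limiting ligase thus differed from each other in these models.

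Glutathione synthetase (Gss), which adds glycine, read 141 against 138. Glutathione reductase (Gsr), which returns the oxidised form, read 387 against 406. Slc7a11, the cystine importer that feeds the pathway, read 1593 against 2450 on its brighter probe set, 1.54-fold lower. On its other probe set it read 109 against 135, 1.23-fold lower. Both probe sets were therefore lower in the knockout model, by different amounts.

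Among peroxide-removing genes the 2 that passed 2-fold were both higher and both encode peroxidases of the endoplasmic reticulum. Gpx8 read 5039 in the knockout model against 2074 in the wildtype, 2.43-fold higher, with a probability of 0.98 for its place. Gpx7 read 149 against 70.4, 2.11-fold higher, with a probability of 0.99, and with a pseudocount of 16 its log2 difference was 0.93. Neither gene had 1 possible place only. The other possible places would put the knockout model further above the wildtype model for both genes (21.1-fold for Gpx7, 24.3-fold or 243-fold for Gpx8), so the direction does not turn on the place.

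Gpx4, which reduces peroxidised phospholipids, read 197 against 129, 1.53-fold higher. Its other possible pair, with a probability of 0.04, would be 6.54-fold lower. Gpx3, a secreted peroxidase, read 259 against 198 and differed by 1.31-fold. Catalase (Cat), the peroxisomal enzyme, went the other way at 1406 in the knockout model against 2460 in the wildtype, 1.75-fold lower. Its other possible pair, with a probability of 0.02, is lower as well.

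Of the peroxiredoxins in the set, Prdx2, a cytosolic enzyme, read 194 against 220, and Prdx3, a mitochondrial one, 610 against 564. Both lay within 1.5-fold. Another possible ratio of Prdx2, with a summed probability of 0.01, would be 8.84-fold higher. The other pair of Prdx3, with a probability of 0.003, would be 9.24-fold lower. Of the 7 expressed genes for peroxide removal 5 read above 0 and 2 below, with a median of 0.39. Gpx2, known from the gut epithelium, was below the threshold with 36.9 against 45.6.

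All 3 superoxide dismutases read higher in the knockout model, each under 2-fold. Sod1, the copper-zinc enzyme of the cytosol, read 2992 against 1802, 1.66-fold higher. Sod2, the manganese enzyme of mitochondria, read 5562 against 3513, 1.58-fold higher. Sod3, which is secreted and binds matrix, read 76.0 against 60.5. Their median was 0.66. It lay between 0.66 and 0.75 in the 7 other settings that kept all 3 genes. Among these, only a changed normalization, pseudocount or weighting of places could move it. It was 0.70 over the 2 genes left by the stricter filter and 0.50 over the 2 left at a minimum probability of 0.99, and with 1 possible place only Sod3 was left, at 0.33. For Sod1 and Sod2 other places were possible with probabilities of at most 0.011. That of Sod1 would be 6.02-fold lower in the knockout model, and those of Sod2 would be higher still.

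Genes of the thioredoxin cycle read slightly lower. Txn1, thioredoxin itself, read 3050 in the knockout model against 3741 in the wildtype, 1.23-fold lower. Txnrd1, the cytosolic reductase that recharges it, read 316 against 378. Srxn1, which repairs overoxidised peroxiredoxins, read 284 against 308. The 3 differences lay between -0.29 and -0.12 on the log2 scale, partly within the middle 50% of all expressed genes, which ran from -0.21 to 0.32.

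Hmox1 and Aldh3a1, the 2 genes of quinone, aldehyde and haem metabolism that could be read, were lower, each under 2-fold. Hmox1, which degrades haem, read 818 against 1253, 1.53-fold lower in the knockout model, with a probability of 0.98 for its place, and the other possible pairs are lower still. Aldh3a1, an aldehyde dehydrogenase best known from the cornea, read 64.1 against 85.2. Nfe2l2, the gene of the regulator NRF2, read 2846 in the knockout model against 4253 in the wildtype, 1.49-fold lower, and its point had 1 possible place. Keap1 read 113 against 82.7 on its brighter probe set and 44.6 against 53.5 on the other, so its probe sets differed in direction, and their mean gave a log2 difference of 0.09.

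**Figure D3:**
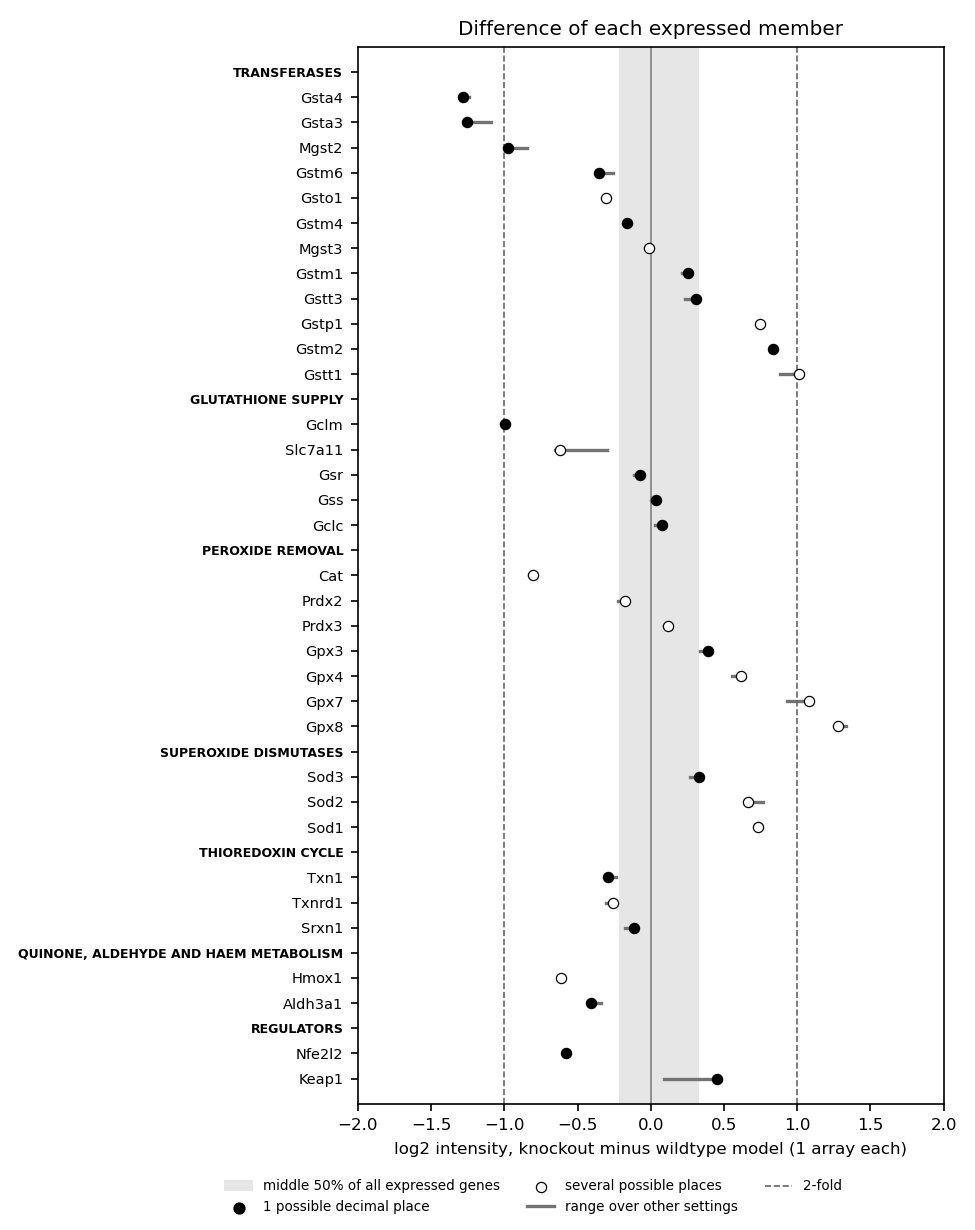
Log2 difference, knockout minus wildtype model, of the 34 expressed genes by role, with filled points for genes with 1 possible decimal place, open points for several, grey lines for the range over the 10 other settings and dashed lines at 2-fold; the grey band holds the middle 50% of all expressed genes (-0.21 to 0.32). Gsta4 and Gsta3 lie beyond 2-fold on the lower side, Gpx8, Gpx7 and Gstt1 on the higher side.

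The undecided genes include Nqo1, the quinone reductase often used as a readout of NRF2. It read 234 in the knockout model, while 90.2, 902 or 9016 were possible for the wildtype, with probabilities of 0.71, 0.28 and 0.02. Nqo1 would thus be 2.59-fold higher, or 3.86-fold or 38.6-fold lower, and its direction is not known. Gstk1, a mitochondrial and peroxisomal transferase, read 489 in the knockout model against 1351 or 135, with probabilities of 0.64 and 0.36. It was at least 2-fold apart at either place, 2.76-fold lower or 3.62-fold higher.

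For Mgst1, a membrane-bound transferase abundant in liver, the likeliest pair was 447 against 204, 2.19-fold higher with a probability of 0.90. A pair of 44.7 against 204, with a probability of 0.07, would be 4.57-fold lower, so its direction is not settled either. Gpx1, the cytosolic selenium peroxidase, could be 64.6 against 81.2 or 646 against 812, with probabilities of 0.50 and 0.49. These pairs share 1 ratio, 1.26-fold lower in the knockout model, so that the ratio had a summed probability of 0.99 while the level stayed unknown.

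**Figure D4:**
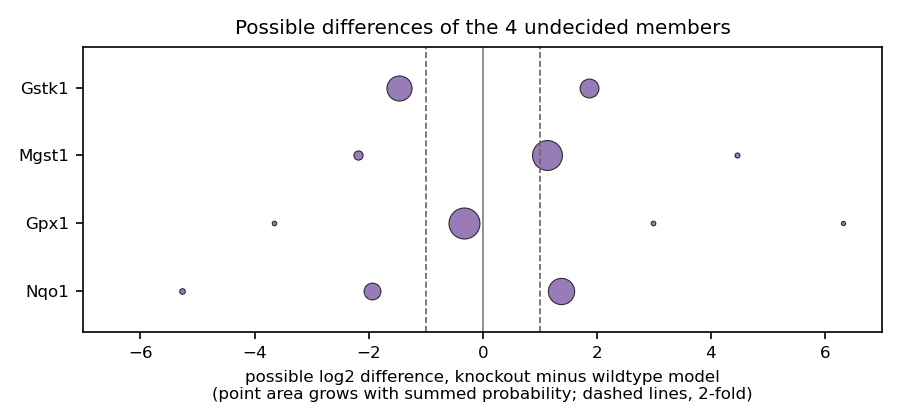
Possible log2 differences, knockout minus wildtype model, of the 4 undecided genes; the area of each point grows with the summed probability of the pairs that share that ratio, and dashed lines mark 2-fold. For Gpx1 nearly all probability (0.99) lies at -0.33, while Nqo1, Gstk1 and Mgst1 have possible differences on both sides of 0, that of Mgst1 below 0 with a probability of 0.07.

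NRF2 binds the antioxidant response element, whose core is TGACNNNGC, so the promoters of these genes were searched for that core on both strands (TGACNNNGC or GCNNNGTCA). Windows of 300 bases, from 250 before to 50 after the start site, came from RefSeq sequences of GRCm38.p6 and matched 39 of the 47 genes. The core was found for 10 of the 39 genes (25.6%), and for 3781 of the 27025 genes in the table. It shares its first letters with the AP-1 site TGACTCA, which was searched for on either strand in and near the 10 cores. That site was found for 1 of them, that of Prdx1, where it lies inside the core, so the match cannot be told from an AP-1 site. The sequences below are the 25 bases around the core in the 6 expressed genes that hold it, written along the strand of the gene with the core in capitals.
Gsta3 (chr1:21240456-21240480, plus strand, 121 bases before the start site): ctcaggcaTGACATTGCatttttct
Nfe2l2 (chr2:75704887-75704911, minus strand, 240 before): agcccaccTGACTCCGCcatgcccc
Gclm (chr3:122245415-122245439, plus strand, 134 before): tcccgggcGCACCGTCAactctcac
Txnrd1 (chr10:82859106-82859130, plus strand, 92 before): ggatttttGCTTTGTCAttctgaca
Sod1 (chr16:90220698-90220722, plus strand, 56 before): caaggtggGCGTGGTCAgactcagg
Srxn1 (chr2:152105544-152105568, plus strand, 28 after): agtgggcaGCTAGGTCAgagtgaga

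Of these 6 genes 5 read lower in the knockout model and Sod1 read higher, with a median of -0.42. The 22 expressed genes whose window lacked the core had a median of 0.18, with 13 above 0 and 9 below. Over all expressed genes the medians were 0.03 for the 1622 with the core and 0.05 for the 8064 without it. Of the remaining holders Gstm5 and Prdx1 have no probe set of their own and Gstm7 lay below the threshold. The point of Mgst1 was undecided, and its likeliest pair is 2.19-fold higher, against the direction of those 5 genes. A match of these letters is a description of the sequence, and elements outside the window were not searched.

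Other genes of the pathway were read from a wider list of 128 genes, of which 101 were restored and 87 expressed. Of the 87 genes 8 (9.20%) were past 2-fold on the higher side and 2 (2.30%) on the lower, beside 3.91% and 3.33% of all expressed genes. The list's median was 0.12, with 50 genes above 0 and 37 below. Cyba, a membrane subunit of the superoxide-producing NADPH oxidase, read 650 in the knockout model against 167 in the wildtype, 3.89-fold higher. Cybb, another gene of this oxidase, went the other way and read 92.4 against 138, a log2 difference of -0.58. Aldh1a1, a retinaldehyde dehydrogenase, read 1138 against 364, 3.13-fold higher.

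Selenop, which carries selenium to other cells, read 1927 against 767, 2.51-fold higher. Aldh3a2, the fatty aldehyde dehydrogenase, was 2.43-fold higher, with 437 against 179. Prdx4 read 153 against 68.0, 2.26-fold higher, and encodes the peroxiredoxin of the endoplasmic reticulum, the compartment of Gpx7 and Gpx8. That these 3 share a compartment was seen after their values were known. Past 2-fold on the same side were also the metallothionein Mt3 (180 against 82.7), Cth, which makes cysteine from cystathionine (559 against 263), and the quinone reductase Nqo2 (161 against 76.4).

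The genes at least 2-fold lower were Glrx, the cytosolic glutaredoxin that removes glutathione from proteins, at 1824 in the knockout model against 4402 in the wildtype (2.41-fold), and Me1, the malic enzyme that yields NADPH, with 341 against 711 (2.09-fold). Among the genes of this list past 2-fold, Cyba, Aldh1a1, Selenop, Aldh3a2 and Glrx had several possible places. The places used had probabilities of 0.98 to 0.99. Of the brightest other genes of the list, the metallothionein Mt2 read 7707 against 6971, Xdh, xanthine dehydrogenase, 3201 against 2946, and the autophagy receptor Sqstm1 3164 against 2716. Slc3a2, the partner chain of Slc7a11, read 2447 against 2544, the aldehyde reductase Akr1a1 2665 against 1977 and Idh1, a cytosolic source of NADPH, 1549 in both models. Those 6 genes lay within 1.5-fold.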

How the data were processed

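The deposited table gives linear intensities by probe set, as judged from the values themselves. Per the labels' protocols, biotin-labelled sense-strand cDNA was hybridised to Affymetrix arrays. How probe sets were summarised and normalized is not stated in the labels. The lost decimal point was restored with Python 3.11.15 and numpy 2.4.6. A place was possible if it gave the shortest form of a single-precision number, a power of 2 with a single-precision exponent, and an intensity between 18 and 20000. All 67457 values had such a place, whereas 89.4% of random 8-digit numbers had none. Pairs of places were weighted by the joint distribution of level and difference, learnt in 25 rounds of expectation maximisation, and by the spacing of single-precision exponents. Of 33793 probe sets 31829 (94.2%) were restored, with 50.2 expected to be misplaced. Range and weights were chosen with the values in view. In a simulation of 33793 probe sets 31744 were restored, 43 of them wrongly. Of 1691 truly at least 2-fold apart 67.7% were restored, 41 of them misplaced, so counts of 2-fold genes are undercounts.

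Exactly 1 symbol was given for 23521 probe sets, several for 1814 and none for 8458. All 41 members with a probe set matched the RefSeq table by Entrez identifier. The brightest probe set of a gene was used. Differences are log2 intensities, knockout minus wildtype, with no further normalization, since the medians of the columns were 47.4 and 47.8. Precision is limited by the number of arrays. Calls rest on a 2-fold threshold, without a test. The members and lists were chosen with earlier results of these data known. Named genes are all members, and of the wider list those at least 2-fold apart and the 6 brightest others. Cybb is named beside Cyba, and Gstp2 and Gstp3 beside Gstp1. Results for markers of adipocytes, melanocytes, endothelium, macrophages, Schwann cells and sebaceous glands are given in the closing section.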

Additional observations from a re-analysis of the deposited data

How the results depend on the processing

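The count of antioxidant genes at least 2-fold higher, 3 in the main analysis, was 1 with a pseudocount of 16 and 1 where places needed a probability of 0.99, 0 when genes with several possible places were left out (fewer genes read) and 5 at every likeliest place. With a threshold of 1.5-fold 8 genes were higher and 7 lower, beside 11.7% and 8.39% of all expressed genes, and with 3-fold 0 and 0, beside 1.03% and 1.45%. The count at least 2-fold lower was 2 or 3 in the other settings. In the wider list the 8 higher genes became 4 with 1 possible place, 13 at 1.5-fold and 2 at 3-fold, and the 2 lower ones became 1 at a probability of 0.99, 1 with 1 possible place, 4 at every likeliest place, 5 at 1.5-fold and 0 at 3-fold. The median of the set moved by less than 0.1 log2 in every setting. Of 307 differences of single genes in the 10 other settings 7 moved by 0.1 log2 or more, and 0 of those at least 2-fold apart changed sign. Filters, limits on the probability of places and averages over probe sets leave a gene with 1 probe set at its main value. Many of the 307 differences therefore could not move, and the count of 7 does not measure stability. Weighting all places alike was chosen after seeing the data and left Cat undecided. No paired analysis was possible because there is 1 sample per genotype, and none could be left out. Differences near the background, about 21.4 on both arrays, are compressed.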

Other observations

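Other cell types had few expressed markers. Of 5 expressed adipocyte markers 3 were past 2-fold on the higher side, beside 3.91% of all expressed genes. Fabp4 (4974 against 816) made up most of their summed intensity of 5719 against 1339. Lpl (84.7 against 42.3) and Cd36 (83.9 against 33.5) were above the threshold in the knockout model only, and Adipoq and Cidec were below it in both. Of 4 expressed melanocyte markers Mlana (705 against 109) and Mitf (464 against 215) were at least 2-fold higher, Pmel was 1.22-fold higher and Sox10 1.29-fold lower, with Dct, Tyr and Tyrp1 below the threshold. Of the 2 expressed endothelial markers Kdr read 87.4 against 36.1, above the threshold in the knockout model only, and Vwf 50.4 against 53.0. Pecam1, Cdh5, Tek and Emcn were below the threshold. Of the 2 expressed macrophage and Langerhans cell markers Cd14 (551 against 240) was 2.29-fold higher and Cd68 (861 against 1161) 1.35-fold lower. Adgre1, Csf1r, Cd207 and Itgam were below the threshold, and Ptprc could not be read. The 1 expressed Schwann cell marker (Mbp) and 2 expressed sebaceous markers (Scd1 and Fasn) were under 2-fold. S100b of the Schwann list and Awat1 and Mc5r of the sebaceous list were below the threshold. Mgst1, an antioxidant gene, was left out of the sebaceous list.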
